A study of Mus musculus with 24 samples.

Results

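Myosin heavy chain is the motor protein of the thick filament, and the 3 genes described here, Myh6, Myh7 and Myh7b, encode its cardiac and slow muscle forms. They were chosen by name, with earlier results of the same libraries known: the 72 h contrast of doxorubicin with vehicle had placed Myh6 and Myh7 among the genes with the most extreme differences. All 3 were in both deposited tables, among 10393 genes at 16 h and 7723 genes at 72 h. The samples were hearts of wild-type mice. DOXH mice received doxorubicin, an anthracycline used against cancer whose use is limited by damage to the heart, at 25 mg/kg together with hesperitin, a flavanone from citrus fruit, at 10 mg/kg/day. DOX mice received 25 mg/kg doxorubicin without hesperitin, H mice received 10 mg/kg/day hesperitin without doxorubicin, and V mice received vehicle. The labels describe 24 samples in 8 groups of 3 at 16 h and 72 h, and 18 libraries in 6 groups were used, namely DOXH, DOX, H and V at 16 h and DOX and V at 72 h. The labels give no sex or age of the mice and do not say whether each library came from an animal of its own; the p-values are thus about spread among these libraries, part of which may be technical.

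In the heart, Myh6 encodes alpha-myosin heavy chain, the faster ATPase, which predominates in the ventricle of the adult mouse. Myh7 encodes beta-myosin heavy chain, the slower and more economical motor, which predominates before birth and in slow skeletal muscle. Thyroid hormone raises transcription of Myh6 and lowers that of Myh7, and a return toward Myh7 is a widely used mark of a stressed or hypothyroid rodent heart. Myh7b, an older member of the family, is expressed at a low level in heart and carries a microRNA in one of its introns.

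Myh6 (ENSMUSG00000040752) lies on the reverse strand of chr14:54941921-54966927 in GRCm38, and Myh7 (ENSMUSG00000053093) lies just upstream of it on the same strand at chr14:54970684-54994626. Myh7b (ENSMUSG00000074652) lies on the forward strand of chr2:155611212-155634307. The coding sequences of Myh6 and Myh7 were identical at 91.7% of 5805 aligned bases, whereas Myh7b was identical to Myh6 at 71.5% and to Myh7 at 72.1% of aligned bases. The stretches that separate the Myh6 and Myh7 transcripts decide which reads can be assigned to either gene. The window of 60 coding bases in which they differed most held 24 differences. It lies in exon 25 of Myh6 (chr14:54952277-54952336, reverse strand) and exon 27 of Myh7 (chr14:54980352-54980411, reverse strand). Capitals mark the bases that differ between the genes.
Myh6: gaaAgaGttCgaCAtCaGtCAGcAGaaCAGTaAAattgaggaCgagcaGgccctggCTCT
Myh7: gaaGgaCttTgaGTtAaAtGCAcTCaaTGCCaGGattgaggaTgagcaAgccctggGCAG
The opposite extreme was a run of 245 identical coding bases, in exons 30 to 31 of Myh6 and exons 32 to 33 of Myh7, in which no read can separate the genes by sequence. It is shown in lower case, since no base differs.
Myh6 and Myh7: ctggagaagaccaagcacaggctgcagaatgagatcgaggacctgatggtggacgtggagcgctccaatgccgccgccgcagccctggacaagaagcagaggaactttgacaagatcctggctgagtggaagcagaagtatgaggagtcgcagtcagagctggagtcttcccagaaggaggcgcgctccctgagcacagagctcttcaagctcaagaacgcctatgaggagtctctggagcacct

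Of all windows of 50 bases in the Myh6 transcript, 22.6% occurred unchanged in the Myh7 transcript, and this share was 15.5% for windows of 75 bases and 11.4% for windows of 100 bases. Read length was not given in the sources used here. RSEM, which the submitters' processing notes name, divides reads of such windows between the genes by estimate, so the 2 values are not fully independent, and the summed counts of Myh6 and Myh7 were therefore tested as well. Myh7b shared no window of 50 bases with either gene. Along the coding sequence, 19 of 96 steps of 60 bases were fully identical, and the lowest identity was 63.3%.

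**Figure D1:**
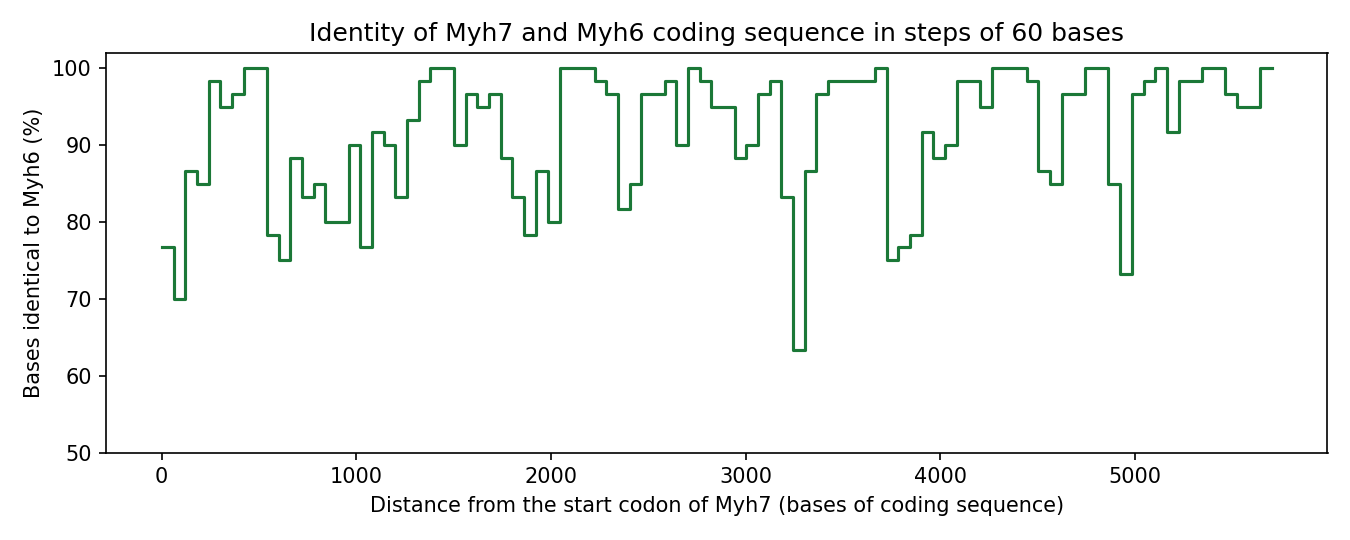
Identity of the Myh7 and Myh6 coding sequences (y axis, percent of aligned bases) in consecutive steps of 60 bases against the distance from the start codon of Myh7 (x axis, bases). Of 96 steps, 19 reach 100%, and the lowest is 63.3%.

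Each of the 3 genes carries a microRNA in an intron, and these sequences are shown because the hosts Myh6 and Myh7 differed in opposite directions at 72 h. The microRNAs themselves were not measured here. RefSeq (GRCm38.p6) places miR-208a in intron 29 of Myh6 (chr14:54949072-54949093, reverse strand), miR-208b in intron 31 of Myh7 (chr14:54975710-54975731, reverse strand) and miR-499 in intron 19 of Myh7b (chr2:155622893-155622913, forward strand). Capitals mark the seed, bases 2 to 8 from the 5′ end.
mmu-miR-208a-3p: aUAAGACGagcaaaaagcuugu
mmu-miR-208b-3p: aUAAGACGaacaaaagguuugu
mmu-miR-499-5p: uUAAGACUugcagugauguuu
The microRNAs hosted by Myh6 and Myh7 share the seed UAAGACG, and that of Myh7b has the seed UAAGACU.

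The 250 bases before the start sites are shown because Myh6 and Myh7 went opposite ways at 72 h. Capitals mark GGAATG, the core of the element bound by TEAD factors, searched on both strands together with the nuclear receptor core AGGTCA, the TATA box sequence TATAAA, the GATA factor core GATAA, the CArG box and the MEF2 box. The Myh6 sequence is chr14:54966608-54966857, and the Myh7 sequence, before the more upstream of its 2 RefSeq start sites, is chr14:54994627-54994876, both on the reverse strand of GRCm38.p6 from RefSeq.
Myh6: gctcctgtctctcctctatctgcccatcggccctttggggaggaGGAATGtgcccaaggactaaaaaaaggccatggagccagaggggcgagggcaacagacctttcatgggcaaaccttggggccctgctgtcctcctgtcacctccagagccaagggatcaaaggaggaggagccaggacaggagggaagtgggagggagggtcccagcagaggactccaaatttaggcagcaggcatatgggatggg
Myh7: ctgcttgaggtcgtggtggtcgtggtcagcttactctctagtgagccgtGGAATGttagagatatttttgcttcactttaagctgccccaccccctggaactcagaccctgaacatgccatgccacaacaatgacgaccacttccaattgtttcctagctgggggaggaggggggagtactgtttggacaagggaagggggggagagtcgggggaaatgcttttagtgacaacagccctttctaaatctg
GGAATG was found at bases -206 to -201 before the Myh6 start and at bases -201 to -196 before this Myh7 start. It was present in 12.6% of 32851 promoters of the same length. The other 5 motifs were not in either window, and none of these motifs was in the 250 bases before the other Myh7 start. Before Myh7b, AGGTCA occurred on the opposite strand at bases -46 to -41, as in 14.0% of promoters, and GATAA at bases -132 to -128, as in 22.6% of promoters. These matches describe the letters and not binding.

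At 16 h the H libraries held 17664089 to 19869092 counts, and the DOXH, DOX and V libraries held 9255708 to 11074498 counts. Depth at 16 h thus went with the H group, and its part in the comparison of H with V was not tested. The libraries of 72 h held 16607839 to 20587603 counts. All values below are CPM, counts relative to library total, scaled by the TMM method unless stated, and the time points were normalised separately, so that tests were made only within a time point. The 3 DOXH libraries did not lie together. On the first principal component of all genes at 16 h, which held 60.8% of the variance, DOXH replicate 2 (35.1) lay among the DOX libraries (29.4 to 42.2), DOXH replicate 3 (-17.7) lay beside the V libraries (-20.7 to -18.0), and DOXH replicate 1 (8.28) lay between. The atrial light chain Myl4 had 273, 9.64 and 195 CPM in DOX hearts and 1.64, 19.1 and 4.71 CPM in V hearts at 16 h. By 72 h Myl4 was at 1.69, 50.4 and 11.3 CPM in DOX hearts and 0.70, 104 and 1.31 CPM in V hearts, so libraries of 1 group differed in Myl4 at both times. The summed atrial markers at 16 h were 194 to 1300 CPM in DOX hearts and 208 to 230 CPM in V hearts. Whether the Myl4 values reflect the amount of atrial tissue was not tested. The heart label was borne out by 15 of 15 cardiomyocyte markers in both tables.

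At 72 h, Myh7 was much higher and Myh6 much lower in DOX hearts than in V hearts. Myh7 had 3266, 3577 and 3780 CPM in DOX hearts, against 58.8, 78.5 and 62.9 CPM in V hearts. Myh6 had 2057, 2844 and 2043 CPM in DOX hearts, against 17680, 13130 and 12950 CPM in V hearts. The groups did not overlap for either gene, and the highest and lowest DOX libraries differed by a factor of only 1.16 for Myh7. Mean Myh7 was 3541 ± 259 CPM in DOX hearts and 66.7 ± 10.4 CPM in V hearts (SD, n = 3 each), a difference of 5.73 ± 0.15 (SE) on the log2 scale or 53.1-fold. Mean Myh6 was 2315 ± 459 CPM in DOX hearts and 14590 ± 2680 CPM in V hearts, a difference of -2.66 ± 0.18 or 6.30-fold lower. Of 7703 genes tested, 53.7% passed an adjusted p of 0.05 in this contrast by edgeR's quasi-likelihood test, 26.5% of all genes as higher and 27.2% as lower. Ordered by fold change, Myh7 stood at rank 4 from the highest and Myh6 at rank 16 from the lowest. These values chose the genes, so no test is given for them.

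Myh7b, the minor form, had overlapping groups at 72 h. Its level was 25.6, 66.8 and 31.7 CPM in DOX hearts, against 65.2, 58.3 and 37.8 CPM in V hearts. The means were 41.4 ± 22.2 CPM in DOX hearts and 53.8 ± 14.2 CPM in V hearts (SD, n = 3 each), a difference of -0.38 ± 0.43 on the log2 scale. The highest DOX value was DOX replicate 2, which also had the most Myh6 and the most Myl4 of its group. The difference was -0.91 ± 0.26 without DOX replicate 2, and -0.13 ± 0.40 without DOX replicate 1.

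Per kilobase of transcript, the 3 forms can be compared with each other. At 72 h DOX hearts had 532 to 616 CPM per kb of Myh7, 334 to 465 CPM per kb of Myh6 and 4.15 to 10.8 CPM per kb of Myh7b. V hearts had 9.58 to 12.8 CPM per kb of Myh7, 2118 to 2892 CPM per kb of Myh6 and 6.14 to 10.6 CPM per kb of Myh7b. Myh7 was thus the most abundant of the 3 forms in every DOX heart, whereas in V hearts it lay close to Myh7b, with overlapping ranges, and far below Myh6.

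**Figure D2:**
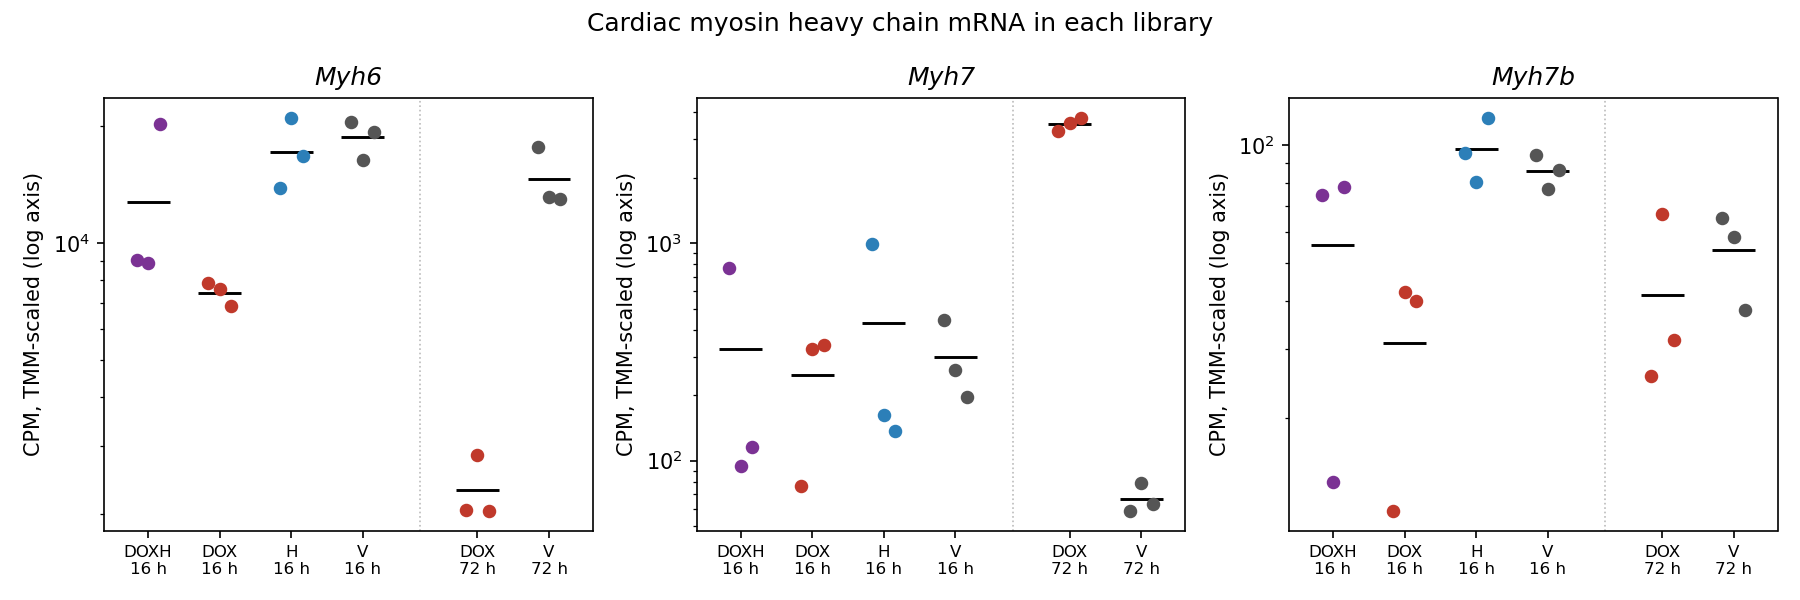
Level of Myh6, Myh7 and Myh7b (y axes, CPM on a log axis) in each library (points) with the group mean (bars), for DOXH, DOX, H and V at 16 h and DOX and V at 72 h; axis ranges differ between panels. The 3 DOX points of Myh7 at 72 h sit between 3266 and 3780 CPM, and the 16 h groups of Myh7 overlap one another.

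The share of Myh7 in the summed counts of Myh6 and Myh7 states the exchange directly. At 72 h it was 61.4%, 55.7% and 64.9% in DOX hearts, against 0.331%, 0.594% and 0.483% in V hearts. Exact (Clopper-Pearson) 95% binomial intervals reached at most 0.28 percentage points to either side at 72 h and 0.165 at 16 h, and they cover counting error only. The spread between libraries was much wider than these intervals. The means were 60.7 ± 4.64% in DOX hearts and 0.470 ± 0.132% in V hearts (SD, n = 3 each), a difference of 60.2 percentage points.

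The higher Myh7 did not make up for the lower Myh6 in the total. Summed Myh6 and Myh7 was 5323, 6420 and 5823 CPM in DOX hearts, against 17740, 13210 and 13010 CPM in V hearts at 72 h, with no overlap. Its mean was 5855 ± 549 CPM in DOX hearts and 14650 ± 2675 CPM in V hearts (SD, n = 3 each), 2.50-fold lower (-1.32 ± 0.14 on the log2 scale). Cardiomyocyte markers were lower too, with summed levels of 26300 to 31000 CPM in DOX hearts and 53400 to 58800 CPM in V hearts. In bulk hearts, fewer cardiomyocytes and less RNA per cardiomyocyte cannot be told apart. Relative to the marker sum, summed myosin was 0.203 ± 0.00316 in DOX hearts and 0.261 ± 0.0349 in V hearts, Myh6 was 0.0801 in DOX hearts and 0.260 in V hearts, and Myh7 was 0.123 in DOX hearts and 0.00120 in V hearts. The differences in Myh6 and Myh7 were therefore also present relative to other cardiomyocyte transcripts.

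The 16 h libraries show the same genes in samples other than those of the 72 h contrast that led to the choice. Earlier results of these data were known, so the 16 h tests are not fully independent of it. Myh6 was already lower in DOX hearts, at 7860, 7592 and 6868 CPM, against 20480, 16380 and 19250 CPM in V hearts. The mean was 7440 ± 513 CPM in DOX hearts and 18700 ± 2104 CPM in V hearts (SD, n = 3 each). Myh6 fell 2.51-fold, by 1.33 ± 0.28 (SE) on the log2 scale, with an adjusted p of 0.00676 over 10393 genes by edgeR's quasi-likelihood test, and all 3 DOX libraries lay below all 3 V libraries. In this contrast 32.3% of genes passed the same test, 15.6% higher and 16.6% lower, so a lower call as such was common. The number of genes passing was 3352, and it was 2230 without DOX replicate 1, 1928 without V replicate 1 and 2021 without V replicate 3. The call of Myh6 held when any of the 6 libraries was left out, with adjusted p between 0.0163 and 0.0265.

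Myh7 did not pass the test at 16 h. Its level was 76.3, 327 and 341 CPM in DOX hearts, against 444, 260 and 196 CPM in V hearts, and the groups overlapped. The means were 248 ± 149 CPM in DOX hearts and 300.1 ± 129 CPM in V hearts (SD, n = 3 each), a difference of -0.27 ± 0.96 on the log2 scale (edgeR adjusted p = 0.847). With so wide an error, a change of some size was not detectable. The sign of this difference turned to 0.158 without DOX replicate 1 and to 0.122 without V replicate 1. Libraries of 1 group differed by a factor of 4.47 in DOX hearts, 8.12 in DOXH hearts, 7.23 in H hearts and 2.26 in V hearts at 16 h.

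Myh7b had 11.6, 42.1 and 39.9 CPM in DOX hearts, against 94.1, 77.3 and 86.4 CPM in V hearts at 16 h. The groups did not overlap, yet the difference of -1.46 ± 0.56 on the log2 scale missed the threshold (edgeR adjusted p = 0.0689). DOX replicate 1 was the lowest of the group for Myh7 and for Myh7b, and it was the highest for the atrial marker Myl4. DOX replicate 3, next highest for Myl4, was the highest of the group for Myh7 and close to DOX replicate 2 for Myh7b. Whether atrial content bears on these values was not tested.

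Summed Myh6 and Myh7 at 16 h was 7936, 7919 and 7210 CPM in DOX hearts, against 20920, 16640 and 19450 CPM in V hearts. The sum fell 2.47-fold, by 1.31 ± 0.26 on the log2 scale (edgeR adjusted p = 0.00575), and the call held without each of the 6 libraries in turn (adjusted p 0.0149 to 0.0234). Relative to the summed cardiomyocyte markers it was 0.188 ± 0.00572 in DOX hearts and 0.289 ± 0.0199 in V hearts (SD, n = 3 each). The marker sum itself was 39600 to 41600 CPM in DOX hearts and 62100 to 68000 CPM in V hearts. The sum thus stood 2.47-fold lower at 16 h and 2.50-fold lower at 72 h, set side by side since the tables were normalised separately, while the make-up of the sum differed. The Myh7 share at 16 h was 0.962%, 4.14% and 4.73% in DOX hearts, against 2.12%, 1.56% and 1.01% in V hearts, a difference of 1.71 percentage points (two-sided exact permutation p = 0.4, n = 3 each). This difference was 2.87 without DOX replicate 1 and 0.984 without DOX replicate 3. With 3 libraries a group this exact test cannot go below p = 0.1.

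**Figure D3:**
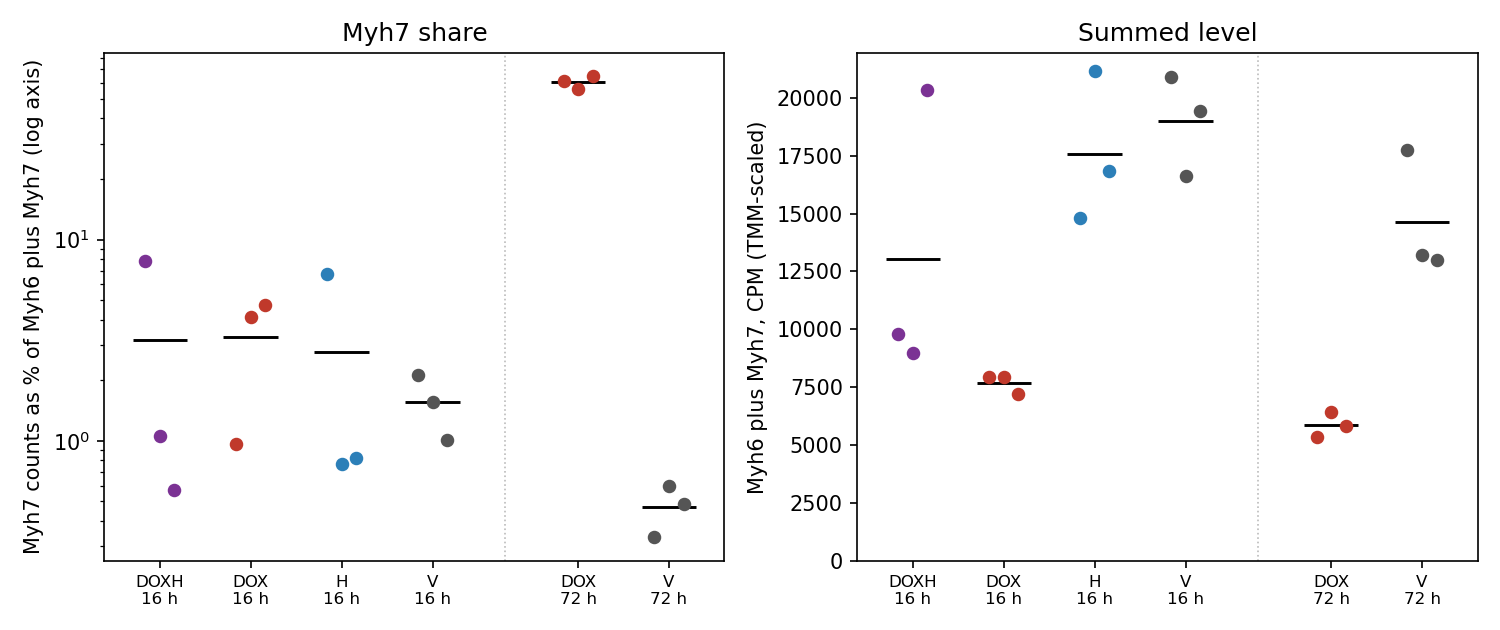
Left, Myh7 counts as a percentage of Myh6 plus Myh7 counts (y axis, log) in each library; right, the summed level of Myh6 and Myh7 (y axis, CPM from 0); points are libraries and bars are group means, for DOXH, DOX, H and V at 16 h and DOX and V at 72 h. The DOX share lies between 55.7% and 64.9% at 72 h, while the summed level of DOX hearts lies below that of V hearts at both times.

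The DOXH hearts address whether hesperitin alters these responses at 16 h, and the 3 libraries were far apart. Myh6 had 9041, 8886 and 20240 CPM in DOXH hearts, against 7860, 7592 and 6868 CPM in DOX hearts. All 3 DOXH values lay above all 3 DOX values, and replicate 3 lay within the range of V hearts. The difference of 0.77 ± 0.28 on the log2 scale did not pass the test (edgeR adjusted p = 0.187). No gene of 10393 passed in this contrast (0%), while 1958 genes had an unadjusted p under 0.05 and DESeq2 called 379 genes. Without DOXH replicate 2 the difference in Myh6 was 0.98 with an edgeR adjusted p of 0.0431, that of the sum was 0.97 with 0.0304, and 1554 genes passed. Without DOXH replicate 3 the difference in Myh6 was 0.27. Summed Myh6 and Myh7 was 9810, 8981 and 20350 CPM in DOXH hearts, a difference of 0.76 ± 0.26 from DOX hearts (adjusted p = 0.18).

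Myh7 had 769, 94.8 and 115.8 CPM in DOXH hearts, against 76.3, 327 and 341 CPM in DOX hearts, a difference of 0.40 ± 0.96 on the log2 scale (edgeR adjusted p = 0.853). Replicate 1 alone was high, and the difference turned to -1.24 without it and to -0.03 without DOX replicate 1. Myh7b had 74.5, 13.7 and 77.9 CPM in DOXH hearts, a difference of 0.83 ± 0.56 from DOX hearts (adjusted p = 0.441). With 1 library left out this difference lay between 0.437, without DOX replicate 1, and 1.29, without DOXH replicate 2 (adjusted p = 0.0648). The Myh7 share was 7.84%, 1.06% and 0.569% in DOXH hearts, and its mean differed from that of DOX hearts by -0.122 percentage points (two-sided exact permutation p = 1).

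Against vehicle, Myh6 differed in DOXH hearts by -0.56 ± 0.28 on the log2 scale (edgeR adjusted p = 0.325), Myh7 by 0.12 ± 0.96 (adjusted p = 0.956) and Myh7b by -0.63 ± 0.55 (adjusted p = 0.569). No gene passed in this contrast (0%), with 1749 at an unadjusted p under 0.05 and 131 by DESeq2. Without DOXH replicate 3 the Myh6 difference was -1.06 (adjusted p = 0.00183), that of the sum was -1.02 (adjusted p = 0.00147), and 1674 genes passed. Without DOXH replicate 1 the Myh7 difference was -1.51. That of Myh7b was -0.17 without DOXH replicate 2 and -0.95 without DOXH replicate 3. Which of the 3 libraries was kept therefore decided the calls for Myh6 in the DOXH hearts.

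Hesperitin without doxorubicin gave no called difference in the 3 genes at 16 h. Myh6 had 13800, 20990 and 16690 CPM in H hearts, against 20480, 16380 and 19250 CPM in V hearts, a difference of -0.12 ± 0.28 on the log2 scale (edgeR adjusted p = 0.984). Myh7 had 995, 162 and 138 CPM in H hearts, against 444, 260 and 196 CPM in V hearts, a difference of 0.52 ± 0.96 (adjusted p = 0.979). H replicate 1 alone was high, and the difference was -1.01 without it. The same library had 885 CPM of skeletal actin Acta1, against 104 and 91.3 CPM in the other H hearts, and 2540 CPM of the stretch-responsive Ankrd1, against 1030 and 1300 CPM. Of the 12 skeletal muscle markers listed, only 2 were among the 10393 genes deposited for 16 h. They summed to 70.1 CPM in H replicate 1, against 13.1 and 17 CPM in the other H hearts. Mybpc2, the fast skeletal myosin-binding protein C, had 49.6 CPM in H replicate 1, against 10 and 11.6 CPM. DOXH replicate 1, also high in Myh7 at 769 CPM, had skeletal muscle markers of 12.8 CPM, against 15.6 and 10.4 CPM in the other DOXH hearts. The part of skeletal muscle RNA in the high Myh7 of H replicate 1 was not tested. Myh7b had 95.3, 80.3 and 118 CPM in H hearts, against 94.1, 77.3 and 86.4 CPM in V hearts (0.19 ± 0.54, adjusted p = 0.992). The Myh7 share differed by 1.21 percentage points (two-sided exact permutation p = 1). No gene passed (0%), with 664 at an unadjusted p under 0.05, 12 by DESeq2 and 47 without H replicate 1.

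Over the 4 groups at 16 h, mean Myh6 was 12720 ± 6511 CPM in DOXH hearts, 7440 ± 513 in DOX hearts, 17160 ± 3618 in H hearts and 18700 ± 2104 in V hearts (SD, n = 3 each). DOX hearts were thus lowest, then DOXH, H and V hearts. Of neighbours in that order, neither DOXH and DOX nor H and V passed the test. DOXH and H, also neighbours, were not tested against each other. Mean Myh7 was 327 ± 384 CPM in DOXH hearts, 248 ± 149 in DOX hearts, 432 ± 488 in H hearts and 300.1 ± 129 in V hearts. Its order, with DOX lowest and H highest, rests on differences smaller than the spread within groups. Mean Myh7b was 55.4 ± 36.1 CPM in DOXH hearts, 31.2 ± 17.0 in DOX hearts, 97.7 ± 18.8 in H hearts and 85.9 ± 8.39 in V hearts, with DOX lowest and H highest.

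Of the 11 other myosin heavy chains listed, only the non-muscle and smooth muscle forms Myh9, Myh10, Myh11 and Myh14 were in the tables, and 1 of these 4 rose in DOX hearts at each time, where 32.3% of all genes were called at 16 h and 53.7% at 72 h. Myh10, the non-muscle IIB heavy chain, had 46.4, 33.6 and 43.9 CPM in DOX hearts, against 29.3, 27.7 and 25.2 CPM in V hearts at 16 h (0.59 ± 0.15 on the log2 scale, edgeR adjusted p = 0.0148). This call was lost without DOX replicate 1 (adjusted p = 0.0556) or V replicate 3 (0.0577), and Myh10 did not pass at 72 h (0.06). Myh14, the non-muscle IIC heavy chain, had 123, 112 and 101 CPM in DOX hearts, against 78.2, 67.9 and 66.2 CPM in V hearts at 72 h (0.66 ± 0.10, adjusted p = 0.000623), and did not pass at 16 h (-0.21 ± 0.11, adjusted p = 0.161). Myh9, the non-muscle IIA heavy chain, differed by -0.03 at 16 h and 0.03 at 72 h and passed at neither time. Myh11, the smooth muscle heavy chain, differed by 0.38 ± 0.27 at 16 h and by -0.45 ± 0.61 at 72 h and also passed at neither time. The remaining listed heavy chains were not analysed here.

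Of genes of the myosin light chains, which bind the lever arm of the heavy chain, and their kinases, 1 of 10 rose and 3 fell at 16 h, where 32.3% of all genes were called. At 72 h 2 of 11 rose and 2 fell, where 53.7% of all genes were called. These counts are near or under the share of all genes and say nothing about light chains as a group. The ventricular regulatory light chain Myl2 had 5030 ± 379 CPM in DOX hearts and 7420 ± 362 CPM in V hearts at 16 h (-0.56 ± 0.07, edgeR adjusted p = 0.00211), and 2140 ± 563 CPM in DOX hearts and 5780 ± 112 CPM in V hearts at 72 h (-1.43 ± 0.18, adjusted p = 0.00037). The ventricular essential light chain Myl3 fell by 0.44 ± 0.07 on the log2 scale at 16 h (adjusted p = 0.00312) and by 1.08 ± 0.13 at 72 h (adjusted p = 0.000143). Myl4, the atrial essential chain, was the 1 that rose at 16 h (4.21 ± 1.28, adjusted p = 0.0305); its values per library, given above, overlapped between the groups, and the call was lost without DOX replicate 1 (adjusted p = 0.0872), DOX replicate 3 (0.0635), V replicate 1 (0.0936) or V replicate 3 (0.0934), by limma voom (0.111) and when only the groups compared were fitted (0.0926). Myl12a and Myl6, chains of non-muscle myosin, rose by 0.53 ± 0.09 (adjusted p = 0.00116) and 0.53 ± 0.18 (adjusted p = 0.0388) at 72 h, and the call of Myl6 was lost without DOX replicate 2 (0.0554) or V replicate 1, 2 or 3 (0.126, 0.0637 and 0.0709).

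Partners of the heavy chain in the thick filament fell at 16 h, with 9 of 10 lower and none higher at a median of -0.86 on the log2 scale, against 16.6% lower and a median of 0.02 over all genes. At 72 h 5 of 11 were lower and 1 was higher, at a median of -0.37, against 27.2% lower, 26.5% higher and a median of 0.01 over all genes. The number called in either direction was close to the 53.7% of all genes. Mybpc3, myosin-binding protein C, had 835, 1150 and 1120 CPM in DOX hearts, against 2730, 2190 and 2500 CPM in V hearts at 16 h (-1.25 ± 0.19, edgeR adjusted p = 0.00251). It had 553, 947 and 737 CPM in DOX hearts, against 2140, 1760 and 1310 CPM in V hearts at 72 h (-1.22 ± 0.24, adjusted p = 0.00467). The giant scaffold titin, Ttn, fell by 0.85 ± 0.19 at 16 h and by 1.38 ± 0.17 at 72 h, and the M-band protein Myom1 fell by 0.47 ± 0.10 at 16 h and by 0.55 ± 0.11 at 72 h. The exception was Trim54, a muscle ubiquitin ligase that binds microtubules, with 93.4, 97.6 and 86.5 CPM in DOX hearts, against 152, 141 and 161 CPM in V hearts at 16 h (-0.71 ± 0.11, adjusted p = 0.00271). In the later libraries it had 244, 210 and 265 CPM in DOX hearts, against 151, 157 and 150 CPM in V hearts (0.65 ± 0.10, adjusted p = 0.000576).

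Genes listed for the thin filament and Z-disc fell with Myh6, and none rose. At 16 h 15 of 19 were lower (median -0.62), against 16.6% of all genes. At 72 h 11 of 19 were lower (median -0.46), against 27.2%. The list also held the light chains Myl2 and Myl3, which were counted above too and were lower at both times. Actc1, Actn2, Tnnt2, Tnni3, Tnnc1, Myl2 and Myl3 of this list are also cardiomyocyte markers. Cardiac actin, Actc1, had 2230, 2060 and 2400 CPM in DOX hearts, against 5980, 5430 and 6480 CPM in V hearts at 16 h (-1.42 ± 0.19, edgeR adjusted p = 0.00211). In 72 h hearts it had 459, 866 and 784 CPM in DOX hearts, against 5660, 4500 and 4070 CPM in V hearts (-2.75 ± 0.26, adjusted p = 0.000173). Tcap, a Z-disc cap of titin, fell by 1.78 ± 0.27 at 16 h (adjusted p = 0.00267) and by 1.12 ± 0.15 at 72 h (adjusted p = 0.000386). Cardiac troponin I, Tnni3, fell by 0.70 ± 0.14 at 16 h and by 1.09 ± 0.12 at 72 h. Troponin T, Tnnt2, fell by 0.34 ± 0.11 at 16 h (adjusted p = 0.0361; 0.0553 to 0.119 with any 1 of the 6 libraries left out) and differed by 0.13 ± 0.11 at 72 h (adjusted p = 0.315), so not every sarcomere transcript was called lower at 72 h. Skeletal actin Acta1 passed at neither time.

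Genes that fold or methylate myosin were lower at 16 h in 6 of 9 cases, against 16.6% of all genes, with none higher. At 72 h 2 of 9 were lower and none higher, near the 27.2% of all genes called lower. Smyd1, a muscle methyltransferase needed for sarcomere assembly, had 249, 278 and 284 CPM in DOX hearts, against 443, 407 and 441 CPM in V hearts at 16 h (-0.67 ± 0.14, edgeR adjusted p = 0.00541). By 72 h it had 194, 223 and 210 CPM in DOX hearts, against 451, 414 and 401 CPM in V hearts (-1.01 ± 0.09, adjusted p = 4.49e-05). Unc45b, the striated muscle chaperone of the myosin head, had 59.9, 71.3 and 72.2 CPM in DOX hearts, against 150, 140 and 145 CPM in V hearts at 16 h (-1.09 ± 0.23, adjusted p = 0.00676). It fell by 0.39 ± 0.09 at 72 h.

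**Figure D4:**
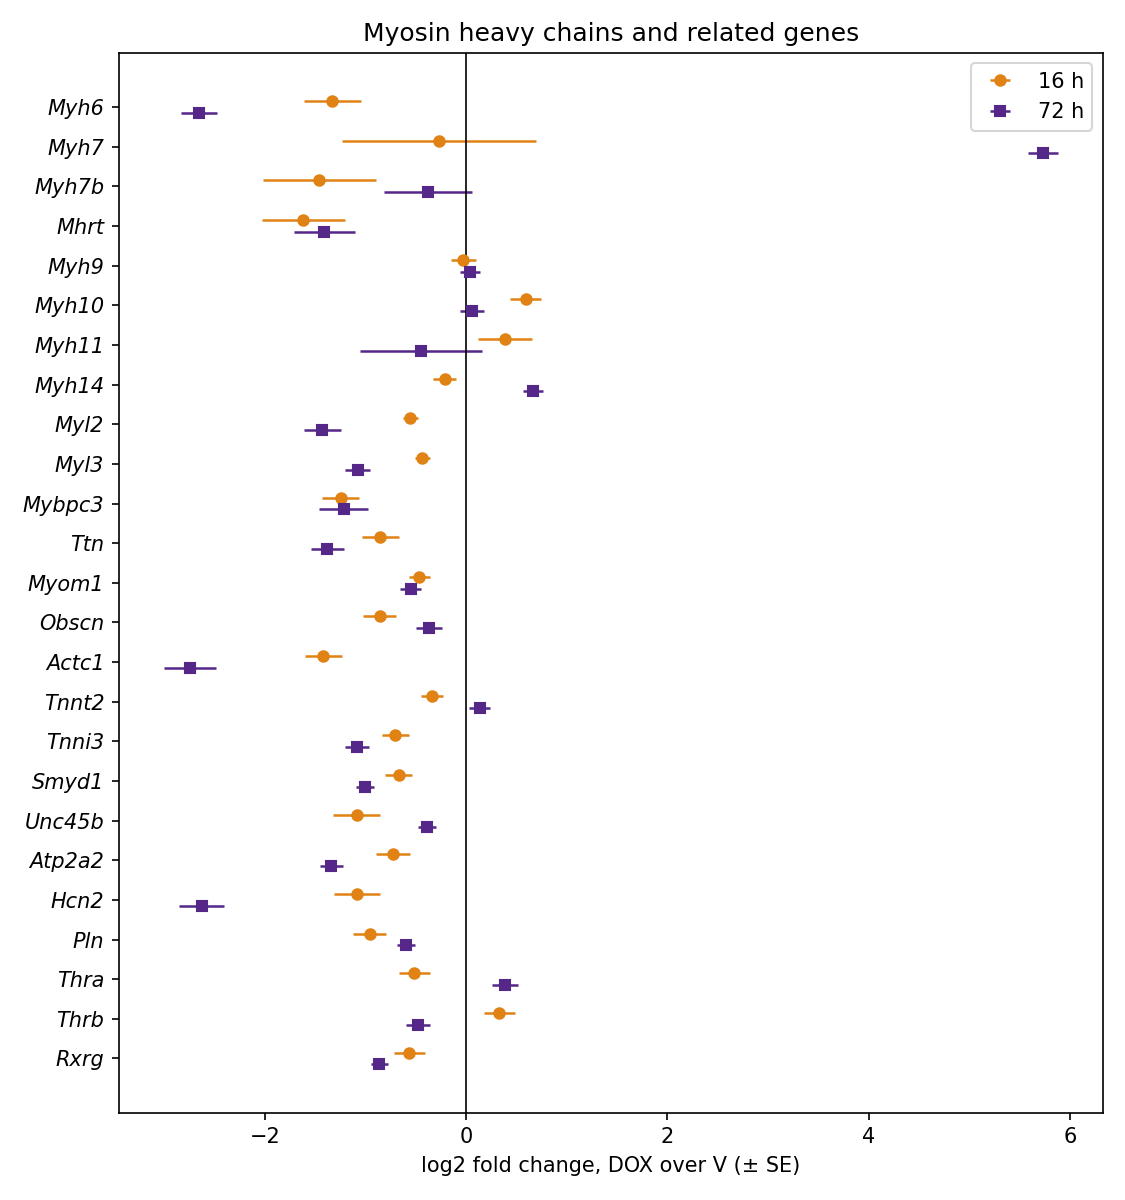
Log2 fold change of DOX over V (x axis, ± SE) for the 3 myosin heavy chains, the antisense RNA Mhrt and related genes (rows) at 16 h (circles) and 72 h (squares). Myh7 lies at 5.73 at 72 h and -0.27 at 16 h, while Myh6 and Actc1 lie left of 0 at both times.

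Genes of the thyroid hormone axis were examined because the hormone acts on Myh6 and Myh7 in opposite directions. Of 10 receptors, coregulators and transporters measured at 16 h, 3 fell and none rose, near the 32.3% of all genes called. This count was 0 without DOX replicate 1 or V replicate 1, and 1 without DOX replicate 2, DOX replicate 3 or V replicate 2. Of 9 at 72 h, 6 fell and 1 rose, against 27.2% and 26.5% of all genes. Thra, the main thyroid hormone receptor of the heart, had 47.3, 49.0 and 48.6 CPM in DOX hearts, against 74.1, 68.6 and 64.5 CPM in V hearts at 16 h (-0.52 ± 0.15, edgeR adjusted p = 0.0254). By 72 h it had 68.3, 71.8 and 49.9 CPM in DOX hearts, against 48.1, 49.3 and 48.1 CPM in V hearts (0.39 ± 0.13, adjusted p = 0.0309). Both calls of Thra were marginal: that of 16 h was lost without any 1 of 5 of the 6 libraries (adjusted p up to 0.0859), and that of 72 h likewise (up to 0.103), the exceptions being V replicate 3 and the unnumbered DOX replicate. Thrb, the other receptor, did not pass at 16 h (0.33 ± 0.15, adjusted p = 0.115) and fell at 72 h by 0.48 ± 0.12 (adjusted p = 0.00764). Rxrg, a retinoid X receptor that pairs with thyroid receptors, fell by 0.57 ± 0.15 at 16 h (adjusted p = 0.0163; 0.0559 without DOX replicate 1 and 0.0589 without V replicate 1) and by 0.86 ± 0.08 at 72 h (adjusted p = 6.09e-05). The thyroid hormone transporter Slc16a10 fell by 0.96 ± 0.11 at 72 h (adjusted p = 0.000112) and differed by 0.12 ± 0.18 at 16 h.

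Heart genes known to respond to thyroid hormone went mostly lower, 9 of 14 at 16 h (median -0.85) with none higher, against 16.6% of all genes lower, and 8 of 12 at 72 h (median -1.07) with 1 higher, against 27.2% of all genes lower. The calcium pump Atp2a2 had 6470 ± 448 CPM in DOX hearts and 10700 ± 538 CPM in V hearts at 16 h (-0.73 ± 0.17, edgeR adjusted p = 0.00998). The level at 72 h was 3500 ± 201 CPM in DOX hearts and 8880 ± 1270 CPM in V hearts (-1.34 ± 0.12, adjusted p = 4.37e-05). The pacemaker channel Hcn2 had 5.74, 9.64 and 7.64 CPM in DOX hearts, against 15.8, 14.3 and 18.9 CPM in V hearts at 16 h. Later, at 72 h, it had 2.56, 3.17 and 2.05 CPM in DOX hearts, against 18.8, 16.2 and 13.2 CPM in V hearts (-2.63 ± 0.22, adjusted p = 4.08e-05). Phospholamban, Pln, which the hormone is known to lower, fell as well, by 0.96 ± 0.17 at 16 h and by 0.60 ± 0.09 at 72 h. The list was not split by the direction in which the hormone acts, so its counts and medians give no direction of hormone action. Atp2a2, Pln and Ryr2 of this list are also cardiomyocyte markers. Those markers fell in 15 of 15 cases at 16 h and in 13 of 15 at 72 h. Whether the thyroid-responsive genes fell apart from cardiomyocyte transcripts in general was not tested.

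Of the transcription factors and cofactors known to act on the 2 cardiac genes, 4 of 27 rose and 6 fell at 16 h, near the 32.3% of all genes called. The number called was 10, and it was 5 without DOX replicate 1, 4 without V replicate 1 and 16 when only the groups compared were fitted. At 72 h 3 of 26 rose and 15 fell, against 26.5% and 27.2% of all genes. Tead1, which binds the GGAATG core printed above, had 76.3, 74.9 and 82.1 CPM in DOX hearts, against 163, 141 and 128 CPM in V hearts at 72 h (-0.89 ± 0.10, edgeR adjusted p = 0.000139), and did not pass at 16 h (-0.17 ± 0.09, adjusted p = 0.151). Mef2c, a muscle enhancer factor, fell by 0.62 ± 0.08 at 72 h (adjusted p = 0.000208). Tbx5, a cardiac T-box factor, rose by 1.08 ± 0.22 at 16 h (adjusted p = 0.00553) and differed by 0.01 at 72 h. Pura, which binds single-stranded DNA and is known to repress Myh6, had 40.2, 42.1 and 42.1 CPM in DOX hearts, against 29.9, 26.3 and 28.0 CPM in V hearts at 16 h (0.56 ± 0.09, adjusted p = 0.0032). By 72 h it had 18.2, 16.3 and 17.5 CPM in DOX hearts, against 23.2, 25.4 and 20.3 CPM in V hearts (-0.41 ± 0.10, adjusted p = 0.00843).

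Other genes of the fetal and stress program did not all go with Myh7. Of 12 at 16 h, 1 rose and 3 fell (median -0.29), near the 32.3% of all genes called, and only 2 were called without DOX replicate 1, DOX replicate 3, V replicate 1 or V replicate 3. Of 13 at 72 h, 3 rose and 2 fell (median -0.74), under the 53.7% of all genes called. Nppb, which encodes B-type natriuretic peptide, had 0.729, 1.58 and 2.30 CPM in DOX hearts, against 97.6, 82.5 and 122 CPM in V hearts at 16 h (-6.01 ± 1.14, edgeR adjusted p = 0.00512). In 72 h hearts it had 57.3, 70.9 and 264 CPM in DOX hearts, against 49.8, 72.4 and 25.5 CPM in V hearts, which overlapped (1.41 ± 0.81, adjusted p = 0.209). Without the unnumbered DOX replicate, which held the 264 CPM, the Nppb difference was 0.38. Ankrd1, a nuclear and titin-bound stress protein, had 2110, 1040 and 3390 CPM in DOX hearts, against 406, 495 and 314 CPM in V hearts at 72 h (2.43 ± 0.47, adjusted p = 0.00796), beside -1.67 ± 0.66 at 16 h (adjusted p = 0.0756). Fhl1, a stretch sensor of the sarcomere, and Rcan1, a target of calcineurin, rose at 72 h by 1.00 ± 0.10 (adjusted p = 8.64e-05) and 1.89 ± 0.39 (adjusted p = 0.00998). Nppa, which encodes atrial natriuretic peptide, had 31.8, 68.6 and 52.7 CPM in DOX hearts, against 22.4, 404 and 16.5 CPM in V hearts at 72 h, and passed at neither time with all libraries. Without V replicate 2, which also had the most Myl4, the difference in Nppa at 72 h was 1.38 (adjusted p = 0.0349).

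At the locus itself, the antisense RNA Mhrt (ENSMUSG00000097652, forward strand of chr14:54968678-54974349) overlaps Myh7, and the sources used here do not say whether reads were counted by strand. Reads of Mhrt and Myh7 may therefore not be told apart, and 38.8% of windows of 50 bases of its transcript occur on the opposite strand of Myh7. Mhrt had 13.8, 11.8 and 11.8 CPM in DOX hearts, against 42.6, 34.0 and 37.9 CPM in V hearts at 16 h (-1.62 ± 0.41, edgeR adjusted p = 0.0139). In 72 h hearts it had 19.9, 41.8 and 21.9 CPM in DOX hearts, against 83.6, 74.1 and 63.7 CPM in V hearts (-1.41 ± 0.30, adjusted p = 0.0102). Mhrt thus fell at both times, including the time at which Myh7 was 53.1-fold higher.

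Of 6 listed genes near Myh6 and Myh7, Mhrt among them, 2 fell and none rose at 16 h, near the 32.3% of all genes called, and of 4 at 72 h 2 rose and 1 fell, where 53.7% of all genes were called. Zfhx2, a zinc finger homeobox gene, fell by 0.99 ± 0.13 at 16 h (edgeR adjusted p = 0.00211), while Bcl2l2, Pabpn1 and Thtpa did not pass (0.07, 0.19 and 0.24). Pabpn1, a nuclear poly(A)-binding protein, rose by 0.75 ± 0.11 at 72 h (adjusted p = 0.000523) and Bcl2l2 did not pass (-0.10). Ngdn (chr14:55015454-55024137) had 24.7, 23.7 and 23.6 CPM in DOX hearts, against 13.1, 16.5 and 13.5 CPM in V hearts at 72 h (0.74 ± 0.10, edgeR adjusted p = 0.000393), and differed by -0.02 at 16 h (adjusted p = 0.926). Around Myh7b on chromosome 2, 1 of 5 genes rose and 1 fell at 16 h, and 2 of 4 rose at 72 h, counts near the 32.3% and 53.7% of all genes called. Gss, a glutathione synthetase, rose by 0.90 ± 0.23 at 16 h (adjusted p = 0.0128) and by 0.68 at 72 h (adjusted p = 0.0021), and Acss2, an acetyl-CoA synthetase, fell by 0.52 ± 0.13 at 16 h (adjusted p = 0.0132; 0.0556 without V replicate 3) and differed by -0.20 at 72 h. Eif6, a ribosomal initiation factor, differed by 0.37 at 16 h (adjusted p = 0.142) and rose by 0.47 at 72 h (adjusted p = 0.00839), and Trpc4ap and Edem2 did not pass at 16 h.

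Marker lists of the cell types of the heart differed between DOX and V hearts to different extents. Of the cardiomyocyte markers, 15 of 15 fell at 16 h and 13 of 15 at 72 h (medians -0.67 and -1.09), against 16.6% and 27.2% of all genes. Ventricular markers summed to 5310 to 8100 CPM in DOX hearts and 10100 to 10400 CPM in V hearts at 72 h. Atrial markers summed to 98 to 283 CPM in DOX hearts and 117 to 737 CPM in V hearts, overlapping, with Sln and Myl7 at or near 0 in V replicates 1 and 3. Endothelial markers summed to 1240 to 1830 CPM in DOX hearts and 937 to 1050 CPM in V hearts, with 7 of 10 higher and 1 lower, against 26.5% and 27.2% of all genes, and 5 of 10 were called without V replicate 1 or V replicate 2. Macrophage markers summed to 333 to 416 CPM in DOX hearts and 226 to 295 CPM in V hearts. Of these, 5 of 8 were higher and 1 was lower, against 26.5% and 27.2% of all genes. Fibroblast markers summed to 1700 to 2620 CPM in DOX hearts and 1230 to 1650 CPM in V hearts without overlap. Among them 2 of 9 were higher (Dcn and Pdgfra) and 1 was lower (Col3a1), under the 53.7% of all genes called. Their median was 0.10 on the log2 scale, against 0.01 over all genes. Mural markers summed to 2130 to 2470 CPM in DOX hearts and 1970 to 2160 CPM in V hearts. Here 1 of 10 was higher and 2 were lower, under the 53.7% of all genes called, and 1 was called without V replicate 2. Erythroid markers summed to 33.5 to 46.4 CPM in DOX hearts and 1460 to 3550 CPM in V hearts, with 6 of 6 lower, against 27.2% of all genes. The mitochondrial share of counts was 28.7 ± 1.54% in DOX hearts and 36.2 ± 1.05% in V hearts (SD, n = 3 each). The part of these shifts in the levels of Myh6 and Myh7 was not tested.

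Likeness to each gene was measured as the root mean square difference of centred log2 CPM over the 18 libraries, among 7393 genes, as a description that shares libraries, depth and the treatment contrast. Closest to Myh6 were Actc1 (0.225), the hexokinase Hk2 (0.257), Hcn2 (0.299), the sorting receptor Sorcs2 (0.313) and the class II histocompatibility gene H2-Ab1 (0.386). Hk2 differed by -1.34 ± 0.27 on the log2 scale at 16 h and by -2.29 ± 0.17 at 72 h, beside -1.33 and -2.66 for Myh6. Distances from Myh7 were larger, and the nearest gene, the plasma glutathione peroxidase Gpx3, was at 1.56. Gpx3 differed by 1.08 ± 0.26 at 16 h and 3.16 ± 0.29 at 72 h. Myh7 was chosen for its extreme difference at 72 h and spread widely within groups at 16 h. Both enlarge this distance, so it does not set Myh7 apart. Lcn2, a secreted iron-siderophore carrier, was at 1.62 and differed by 5.62 ± 0.80 at 72 h, beside 5.73 for Myh7, but also by 2.18 ± 0.58 at 16 h. Closest to Myh7b were Hmcn1 (0.371), Gmnn (0.435), the membrane protein gene Popdc2 (0.442), Acy3 (0.453) and the Z-disc gene Synpo2l (0.454). Popdc2 differed by -1.63 ± 0.38 at 16 h and -0.56 ± 0.13 at 72 h, beside -1.46 and -0.38 for Myh7b.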

How the data were processed

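Hearts were profiled by poly(A)-selected, single-end RNA sequencing, per the labels' protocols. The submitters' processing notes name RSEM, DESeq2 and the builds GRCm38 and mm10, with no versions. The deposited values are expected counts per gene that the authors estimated, and these were rounded to whole numbers. At 72 h, 1 DOX column carries a number that no label gives and was used as an unnumbered replicate of its group. A further 6 columns at 72 h matched no label and were not used. DOXH and H at 72 h were not analysed here. No library pair agreed within sampling noise.

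Counts were fitted with edgeR 4.0.16 in R 4.3.3 (quasi-likelihood, robust, TMM factors, filterByExpr), over 12 libraries at 16 h and 6 libraries at 72 h, with Benjamini-Hochberg adjustment over 10393 and 7703 genes and a threshold of 0.05. The scripts were tested on simulated data. A sum of Myh6 and Myh7 replaced both in a second fit. Standard errors are the log2 fold change over the square root of F. A prior count of 2 was added for log2 CPM. The Myh7 share was compared by exact permutation. Sequences came from GENCODE vM21 transcripts on GRCm38, as compared with Biopython 1.88, and from RefSeq. DESeq2 1.42.0 and limma 3.58.1 were alternatives. Further settings were factors by RLE or upper quartile, omission of the filter or a mean of at least 5 CPM, totals without mitochondrial genes, a replicate block, a fit of only the groups compared, and each library left out.

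Members and gene lists were chosen with earlier results of these data known. Genes named by rule were the members, every measured gene of the other heavy chain and locus lists, up to 5 genes per list with the smallest p in DOX against V at each time, and the 5 genes most like each member; the other named genes were chosen after their values were seen.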

Additional observations from a re-analysis of the deposited data

Results flagged for a closer look

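The effect of doxorubicin had opposite signs at 16 h and 72 h for 3 genes on the lists, with every DOX library on one side of every V library at each time. Trim54, a muscle ubiquitin ligase, differed by -0.707 on the log2 scale at 16 h and by 0.652 at 72 h. Thra, the thyroid hormone receptor alpha gene, differed by -0.516 at 16 h and by 0.385 at 72 h. At each time the Thra call held in only 1 of 6 fits with a library left out. Pura, a known repressor of Myh6, differed by 0.564 at 16 h and by -0.406 at 72 h. Over all genes, 32.3% were called at 16 h and 53.7% at 72 h. How many of all genes switched sign in this way was not counted. The time points were normalised in separate tables, and the difference between the times was not tested.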

How the results depend on the processing

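The fall of Myh6 and of the sum in DOX hearts at 16 h passed under all 9 other settings (Myh6 -1.34 to -1.32 on the log2 scale). Myh7 at 16 h changed sign: DOX against V was 0.21 with the replicate block; DOXH against DOX was -0.00233 by limma voom and -0.58 with the block; H against V was -0.011 by voom; DOXH against V was -0.47 by voom and -0.37 with the block. Genes passing, none in these contrasts, were 379 by DESeq2 and 1 when only the groups compared were fitted for DOXH against DOX, 12 by DESeq2 for H against V, and 131 and 1 for DOXH against V. The replicate numbers did not pair the libraries (r -0.415 to 0.25 over 18 pairs, 4 of them over 0.1; 1 of 12 libraries correlated best with its own number). At 72 h 1 DOX column had no number.

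With each library left out, genes passing were 1928 to 2409 for DOX against V (3352 with all; 2230 without DOX replicate 1, 1928 without V replicate 1, 2021 without V replicate 3), 0 to 1554 for DOXH against DOX, 0 to 47 for H against V and 0 to 1674 for DOXH against V. Myh7 ranged from -0.57 to 0.158, -1.24 to 0.835, -1.01 to 0.947 and -1.51 to 0.564 in those 4 contrasts. Myh6 ranged from 0.269 to 0.976 for DOXH against DOX, -0.295 to 0.00934 for H against V and -1.06 to -0.352 for DOXH against V, and the sum from 0.289 to 0.972 for DOXH against DOX and -1.02 to -0.332 for DOXH against V. Myh7b ranged from 0.437 to 1.29 for DOXH against DOX, 0.0311 to 0.309 for H against V and -0.954 to -0.171 for DOXH against V. The share difference ranged from 0.984 to 2.87 percentage points for DOX against V, and from -2.46 to 1.17, -0.773 to 2.21 and -0.752 to 2.88 percentage points for DOXH against DOX, H against V and DOXH against V. The cause was not tested. At 72 h no setting turned the direction of the 3 genes. With each library left out Myh6 stayed between -2.83 and -2.50, Myh7 between 5.65 and 5.86, Myh7b between -0.908 and -0.125. The 72 h contrast had led to the choice of Myh6 and Myh7, so their ranges describe the size and lend no separate weight. Of genes near 0, these turned with single libraries left out: Myh9 at 16 h (-0.0993 to 0.0118) and 72 h (-0.0485 to 0.0984, and -0.00205 without V replicate 1), Ngdn at 16 h (-0.05 to 0.019), Myh10 at 72 h (-0.0985 to 0.14) and Tbx5 at 72 h (-0.112 to 0.143); so did Nppa at 72 h (-2.06 to 1.38). With a block of numbers 1 and 2 alone at 72 h, Myh11 was 0.0914, Tbx5 -0.0578 and Nppb 0.0822, and the calls of Mhrt (-1.44, edgeR adjusted p = 0.219) and Ankrd1 (1.73, 0.0726) were lost; that fit holds 4 of the 6 libraries.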
